A study of Mus musculus with 24 samples.

Results

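The cytosolic ribosome is assembled from ribosomal RNA and a set of ribosomal proteins, encoded in the mouse by the Rps genes for the small subunit and the Rpl genes for the large subunit. The genes described here were taken by name from a table of estimated counts per gene. They were those named Rps or Rpl with a number and at most a final a or x, and Rplp0, Rplp1, Rplp2 and Rpsa, without pseudogenes. This gave 76 of the 45706 genes of the table, 30 of the small and 46 of the large subunit. All 76 passed the filter on low counts that left 15667 genes for testing, with total counts over all libraries between 5408 and 122263.

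The libraries were of poly(A) RNA from whole hypothalamus of male mice with diet-induced obesity (mean weight 53 g, housed in pairs), 8 for each of 3 groups. Mice of the PSD-95i group were given 25 mg/kg of UCCB01-147, which inhibits PSD-95, the main scaffold of excitatory synapses. Those of the PICK1i group were given 56 mg/kg of mPD5, which inhibits PICK1, a scaffold that binds AMPA receptors through its PDZ domain. Control mice were given isotonic saline, and all 3 groups were injected once a day for 5 days and killed 2 h after the last injection. The study asked what each inhibitor changed in hypothalamic gene expression. The doses of the inhibitors differ, so that a difference between them is one between 2 treatments as given. The protocol names 6 saline mice and the labels 8 saline libraries, and the labels do not tie libraries to animals, so p-values measure the spread between libraries.

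As background, cells make the ribosomal proteins in matched amounts and degrade unassembled ones. The mRNAs of vertebrate ribosomal proteins begin with a C followed by an uninterrupted stretch of C and T (U in the RNA), the 5′ terminal oligopyrimidine or TOP motif, through which mTOR and its target LARP1 control their translation together. Phosphorylated ribosomal protein S6, the product of Rps6, is widely used in the hypothalamus as a mark of active neurons, and such control of translation or phosphorylation is not visible in mRNA counts.

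Annotated starts were searched for this feature. RefSeq (GRCm38.p6) had promoter entries for 56 of the 76 genes, 66 entries in all, each of 250 bases before and 50 bases from the annotated start. A run of at least 8 C and T that reached within 5 bases of the annotated start was found in 22 of the 66 entries (33.3%), against 9.72% of all 32841 entries. A C at the annotated start followed by 4 C or T was found in 13 entries (19.7%), against 2.5% of all entries. The 5 starts printed first have such a run, in capitals, and the 3 printed after them have none. The genes were chosen because the comparisons of the treatments turn on them or, for Rps6, Rplp2 and Rps15a, for their role or their small variation. Each line holds 15 bases before and 15 bases from the annotated start, 5′ to 3′ on the gene's strand.
Rpl28 (chr7:4792950-4792979, plus strand): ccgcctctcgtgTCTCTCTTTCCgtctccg
Rpl38 (chr11:114668565-114668594, plus strand): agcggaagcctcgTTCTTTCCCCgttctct
Rps6 (chr4:86857353-86857382, minus strand): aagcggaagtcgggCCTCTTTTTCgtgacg
Rplp2 (chr7:141447636-141447665, plus strand): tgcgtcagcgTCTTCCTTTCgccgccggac
Rps15a (chr7:118116133-118116162, minus strand): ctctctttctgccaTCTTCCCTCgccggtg
Rps15 (chr10:80292416-80292445, plus strand): cccggcagagctcgcgataactgcgcaagc
Rpl36a (chrX:134585639-134585668, plus strand): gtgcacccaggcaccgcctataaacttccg
Rpl5 (chr5:107900513-107900542, plus strand): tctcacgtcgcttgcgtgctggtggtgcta

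Other short motifs were counted on both strands of the 300 bases. The letters CCGGAAG, a core of ETS and GABPA sites, were in 24 of the 66 entries (36.4%), against 8.86% of all entries. The letters AAGATGG, a core of YY1 sites, were in 11 (16.7%), against 6.34%. CTTTCC, which is part of many C and T runs, was in 33 (50%), against 26.6%. TATAAA was in 6 (9.09%), against 13.6%. The motifs were not tested for binding, and an annotated start can differ from the one used in the hypothalamus.

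The genes share further features that the rule on names did not use. They lay on 19 chromosomes, 14 of them on chromosome 7 and 4 on chromosome X. Annotated transcripts, weighted by their counts, had a median length of 765 bases (351 to 4780, 74 genes with a length), against 2767 bases over all tested genes, and 55 of the genes had at most 1000 bases, against 9.18% of tested genes. Inside 29 of the 76 genes lay 56 snoRNA genes, among them 5 in Rpl4 and 4 in Rpl13a. By comparison, 1.67% of tested protein-coding genes held a snoRNA gene. Near-identical copies limit the counts: 56 of the genes had 255 pseudogene rows of their own name in the table, and for 15 genes those rows held over 20% of the summed count of gene and copies (59.6% for Rpl27, 45.7% for Rpl19 and 44.5% for Rpl31). Only 23.3% of the values of these genes were whole numbers within 0.001, so that most values were estimates in which some reads were divided between rows. How many reads were divided is not shown by this share. Over the whole table it was 94.3%, but only 15667 of its 45706 genes passed the filter on low counts, and empty values count as whole.

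Counts summed to between 4762703 and 9228858 per library (median 7628245). Of 18 hypothalamus markers, 18 were detected in every library. Saline replicates 2 and 3 stood apart. Their 12 anterior pituitary markers summed to 77103 and 55404 CPM (counts per 1000000), against 36.1 to 219 CPM in the other 22 libraries, and all 12 were higher in both than in any other library. Of the other lists, both were above every other library in 1 of 18 hypothalamus markers (Pomc, which is on the pituitary list too), 1 of 10 cortex and hippocampus, 2 of 8 leptomeningeal fibroblast and 2 of 7 choroid plexus and ependyma markers, and in 0 of the red blood cell, microglia, oligodendrocyte and astrocyte markers. Their 6 oligodendrocyte markers summed to 2814 and 3692 CPM, against 5023 to 9323 CPM elsewhere. PICK1i replicates 1, 2, 5 and 6 had 13.5% to 16.6% of their counts in mitochondrially encoded genes, against 8.70% to 11.2% in the other PICK1i libraries, 8.51% to 10.4% in PSD-95i and 7.88% to 10.7% in saline. They also had relatively more counts on short transcripts, with a slope of log2 deviation on log2 length (over tested genes other than those described) of -0.17 to -0.10, against -0.02 to 0.09 in the other 20 libraries. Their total counts were 4762703 to 6759719, against 7076186 to 9228858 in the other PICK1i libraries. Their oligodendrocyte markers summed to 6317 to 9323 CPM, against 5023 to 7429 CPM in the other PICK1i libraries. Their astrocyte markers summed to 879 to 931 CPM, against 984 to 1144 CPM in the other PICK1i libraries. That sum was 1070 to 1197 CPM in PSD-95i and 738 and 823 CPM in saline replicates 2 and 3. In the other saline libraries it was 1075 to 1336 CPM. In PICK1i replicate 6, cortex and hippocampus markers summed to 581 CPM and red blood cell markers to 1747 CPM, the highest of all libraries. In bulk tissue, fewer cells of a type and less RNA per cell cannot be told apart.

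Measured per length, the genes together held 3.66% of the summed level of all genes on average (3.21% to 4.19% over the 24 libraries), and 9 of them were among the 100 highest genes. The highest per-length levels, on a scale that sums to 1000000 per library, were those of Rplp1 (1884 ± 191, SD, n = 24), which encodes an acidic protein of the ribosomal stalk, Rps29 (1071 ± 148), Rpl8 (997 ± 82.7), Rps24 (932 ± 91.5) and Rps15 (885 ± 80.2). The lowest were those of Rps15a (107 ± 6.97), Rpl22 (115 ± 14.5), Rpl39 (116 ± 17), Rpl27 (120 ± 17.1) and Rpl10a (160 ± 11.4). The median was 470 and the highest level was 17.6-fold the lowest. In the order of levels, 71 of 73 neighbouring pairs overlapped within 1 SD. The 2 gaps lay between Rplp1 and Rps29 and between Rpl10a and Rpl27. The SDs include variation between libraries that the genes share, so an overlap does not show that the order differs between libraries.

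**Figure D1:**
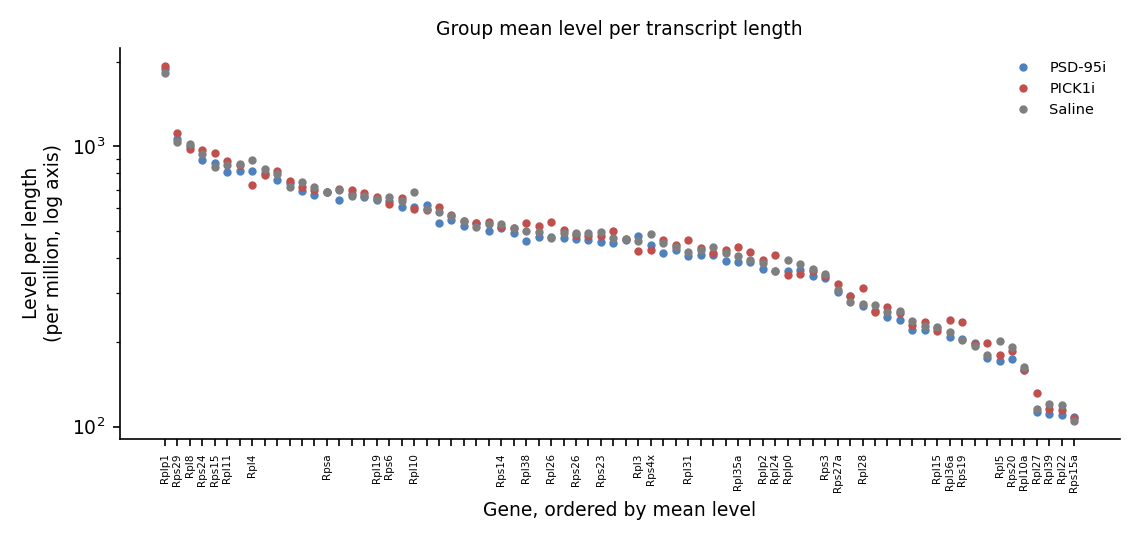
Mean level per transcript length in each group (8 libraries each, points; log axis, scaled to 1000000 per library) of the 74 ribosomal protein genes with an annotated length, ordered by their mean over all libraries, with the genes named in the text labelled. The groups lie close together along a range that is 17.6-fold from Rplp1 to Rps15a.

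Some genes with low per-length levels had many of their counts on long transcripts or beside large counts in pseudogene rows, and others did not. Of the counts of Rps15a, 91.9% were assigned to transcripts of over 2000 bases, as were 81% for Rps20, 66.1% for Rpl22 and 57.4% for Rpl5. For Rpl27 and Rpl10a, 59.6% and 32.6% of the summed count lay in pseudogene rows. How much of the order follows from such division was not tested. Over all members, 75.7% of counts were assigned to protein-coding transcripts and 15.7% to annotated retained-intron transcripts. The retained-intron share was 15.8% ± 0.185 in PSD-95i, 15.6% ± 0.330 in PICK1i and 15.8% ± 0.176 in saline (SD, n = 8 each), and these ranges overlapped.

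Summed over all 76 genes, the share of library counts was 1.42% ± 0.0930 in PSD-95i, 1.57% ± 0.194 in PICK1i and 1.52% ± 0.151 in saline (SD, n = 8 each). It ran from 1.26% to 1.55% in PSD-95i libraries with a median of 1.42%, from 1.36% to 1.87% in PICK1i libraries with a median of 1.55%, and from 1.40% to 1.86% in saline libraries with a median of 1.46%. All 3 ranges overlapped. PICK1i replicate 1 (1.87%) and saline replicate 2 (1.86%) were the highest, and PSD-95i replicate 1 (1.26%) was the lowest. Both subunits gave the same order of groups: the shares of small and large subunit genes were 0.571% and 0.853% in PSD-95i, 0.632% and 0.939% in PICK1i, and 0.609% and 0.911% in saline. Without PICK1i replicates 1, 2, 5 and 6 the summed share in PICK1i was 1.42% ± 0.0865 (n = 4), and without saline replicates 2 and 3 that in saline was 1.45% ± 0.0537 (n = 6). The 6 libraries were named from earlier results of these data. Of the 8 PICK1i libraries, replicates 1, 2, 5 and 6 were also the 4 with the highest shares of these genes, so the lower mean without them follows in part from the choice and is given as a description.

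**Figure D2:**
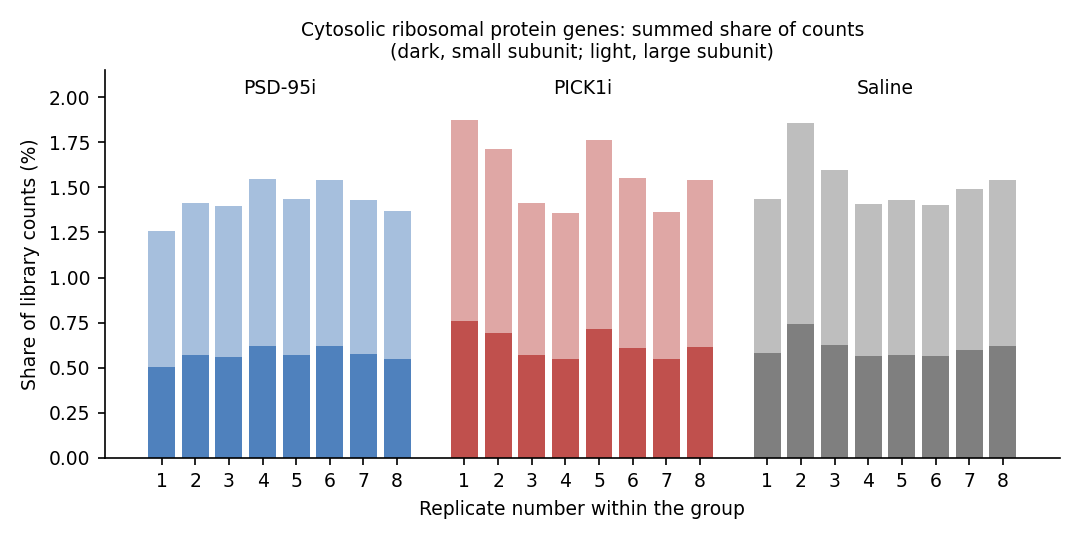
Share of each library's counts, in percent, in the 76 ribosomal protein genes, for the 8 replicates of PSD-95i, PICK1i and saline. Dark bars are the 30 small subunit genes and light bars on top of them the 46 large subunit genes. PICK1i replicate 1 and saline replicate 2 reach 1.87% and 1.86%, and PSD-95i replicate 1 is lowest at 1.26%.

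The genes varied together from library to library. Deviation is used here for log2 CPM (scaled by TMM, prior count 2) minus the gene's own mean over the 24 libraries. In PICK1i replicate 1 all 76 genes were above their own mean, with a mean deviation of 0.46, and in saline replicate 2 it was 74 genes, with a mean of 0.30. In PSD-95i replicate 1 and in PICK1i replicate 4 0 genes were above their own mean, with mean deviations of -0.28 and -0.17. The highest of the 24 values was in PICK1i replicate 1 for 48 genes and in saline replicate 2 for 14, and the lowest was in PSD-95i replicate 1 for 44 and in PSD-95i replicate 8 for 11. The first principal component of the 76 genes held 77.0% of their variance and the second 7.67%. The mean deviation ran from -0.28 to 0.03 in PSD-95i (median -0.10), from -0.18 to 0.46 in PICK1i (median 0.11) and from -0.12 to 0.30 in saline (median -0.04). The 4 PICK1i libraries with a high mitochondrial share had mean deviations of 0.46, 0.26, 0.30 and 0.17, and the other 4 had -0.09, -0.17, -0.18 and 0.05. Mitochondrial share and the slope on length stood apart in these 4 PICK1i libraries, but not in saline replicate 2, whose mitochondrial share (7.88%) was the lowest of all and whose slope was -0.02. Pituitary markers were high in saline replicates 2 and 3 and low in all PICK1i libraries. The part of these measures in the deviations was not tested.

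**Figure D3:**
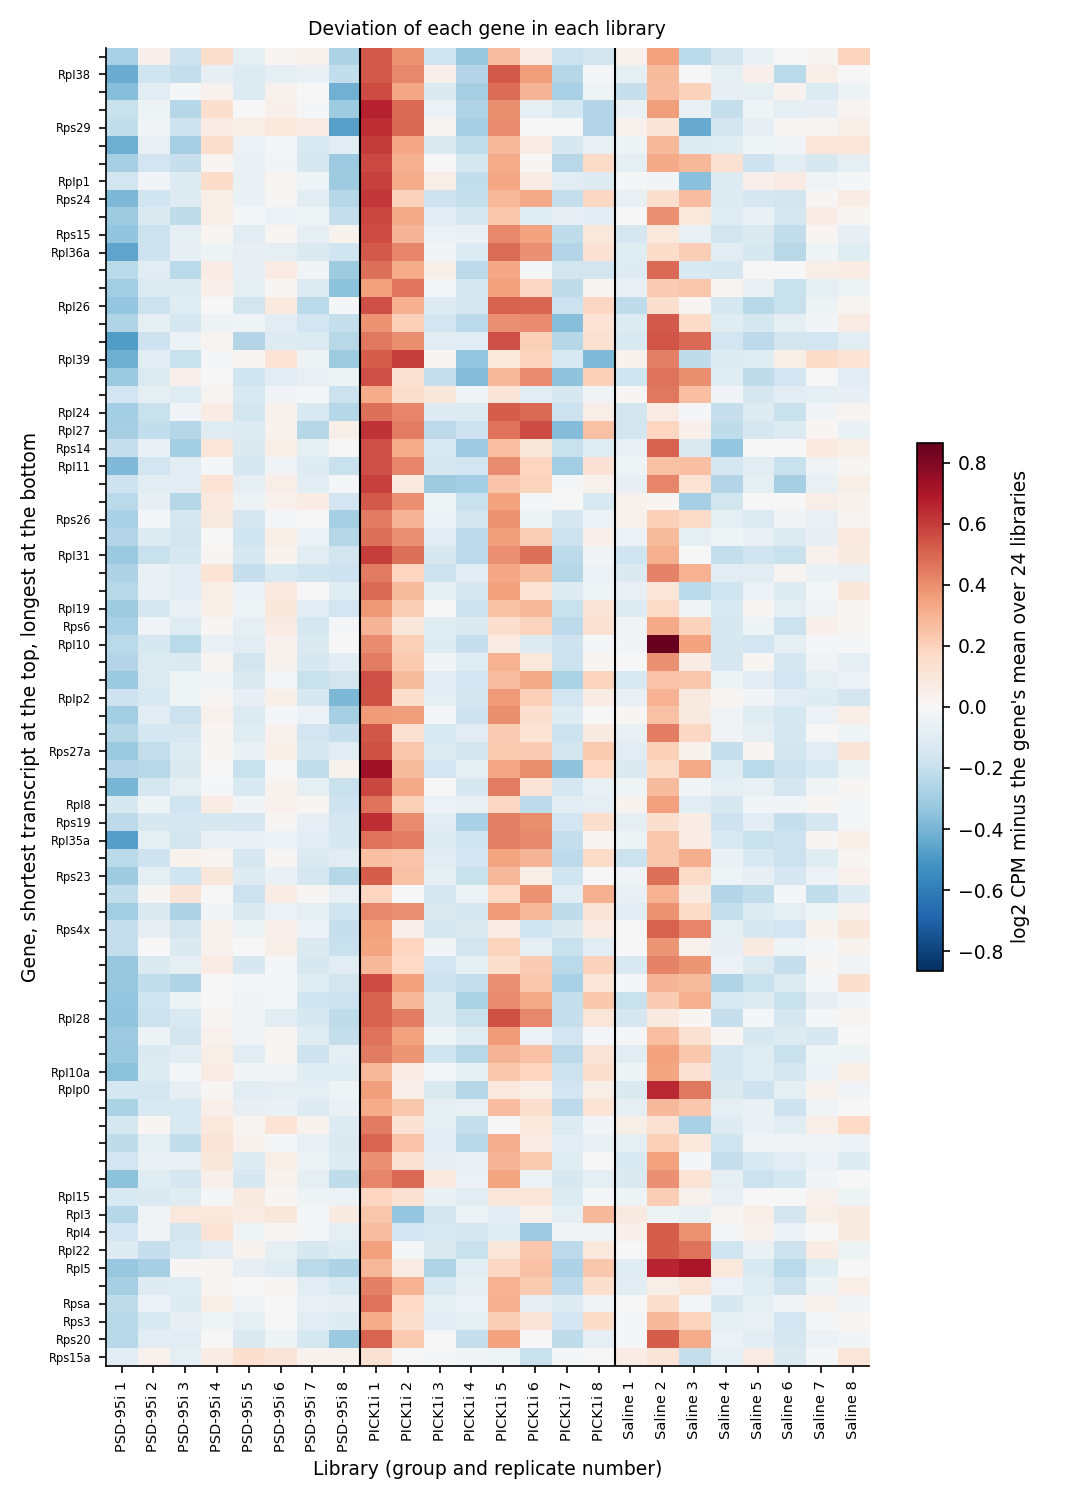
Deviation of log2 CPM from each gene's mean over 24 libraries (colour; red above, blue below) for the 74 genes with an annotated length (rows, shortest length as weighted by assigned counts at the top, those named in the text labelled) in the libraries of PSD-95i, PICK1i and saline (columns, black lines between groups). Whole columns are red for PICK1i replicate 1 and saline replicate 2 and blue for PSD-95i replicate 1, while single cells such as Rpl10 and Rpl5 in saline replicate 2 stand out from their column.

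High libraries differed in which of the genes were highest. Lengths used here are weighted by counts, so those of genes such as Rps15a and Rpl5 rest on how reads were divided between transcripts. With the 74 genes divided by length into a shortest (25 genes, at most 657 bases), a middle (24) and a longest class (25, at least 947 bases), the mean deviation in PICK1i replicate 1 was 0.54, 0.47 and 0.38. In saline replicate 2 it was 0.30, 0.30 and 0.31, and in saline replicate 3 it was 0.05, 0.09 and 0.18. Other tested genes of at most 1000 bases deviated by 0.34 in PICK1i replicate 1, by 0.06 in saline replicate 2 and by 0.04 in saline replicate 3. Genes of mitochondrial ribosomal proteins, which serve the separate ribosome of the mitochondrion, deviated by 0.27 in PICK1i replicate 1 and by -0.04 in saline replicate 2. In saline replicates 2 and 3, Rpl5 (0.66 and 0.71), Rpl10 (0.86 and 0.35) and Rplp0 (0.65 and 0.45) were far above their means, while Rps29 (0.11 and -0.43) and Rplp1 (-0.03 and -0.36) were not. In PICK1i replicate 1, Rps29 and Rplp1 deviated by 0.64 and 0.59, and Rpl5, Rpl10 and Rplp0 by 0.29, 0.41 and 0.36.

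**Figure D4:**
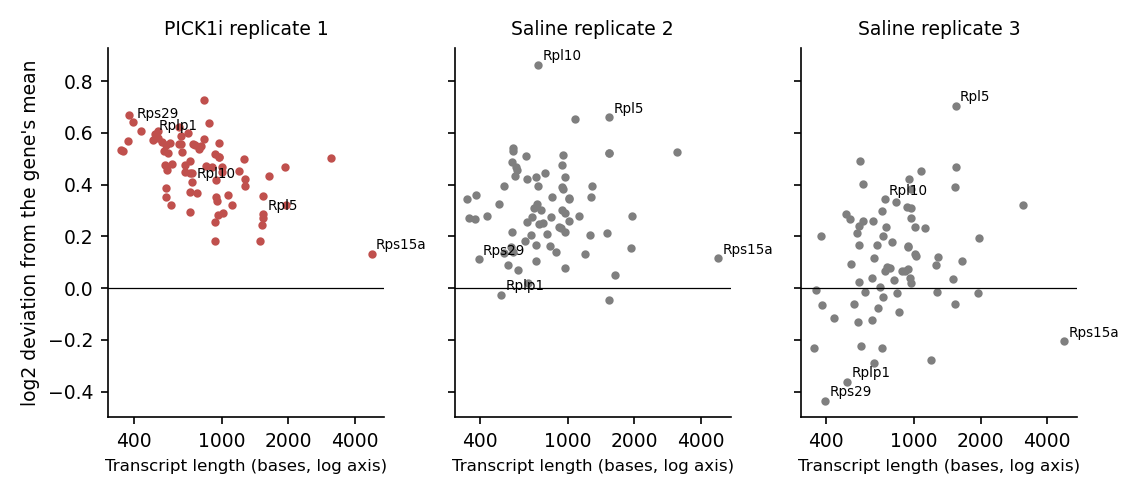
Deviation of each gene (74 points a panel, log2) against transcript length (weighted by assigned counts, log axis, bases) in PICK1i replicate 1, saline replicate 2 and saline replicate 3. In PICK1i replicate 1 every gene is above 0 and the shortest class has the highest mean (0.54), whereas in saline replicates 2 and 3 Rpl5 and Rpl10 lie high and Rps29 and Rplp1 low.

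Of the 76 genes, 1 was higher in PICK1i than in saline past the threshold and 0 were lower. The gene was Rps15, which encodes a protein of the head of the small subunit (chromosome 10, 80292453 to 80294114). Its lowest, median and highest values were 213, 284 and 367 CPM in PICK1i libraries, against 214, 232 and 264 CPM in saline libraries. The ranges overlapped, 7 of 8 PICK1i libraries were above the saline median, and the highest 4 were replicates 1, 5, 6 and 2. Its log2 fold change was 0.27 ± 0.0875 (SE; adjusted p = 0.0476, edgeR's quasi-likelihood test with Benjamini-Hochberg adjustment over all genes tested). Among all tested genes 1434 of 15667 were called (9.15%), 4.88% higher and 4.27% lower, so that 1 called gene among 76 was below the share over all genes. Without PICK1i replicates 1, 2, 5 and 6 the value of Rps15 was 0.02 ± 0.0718 (adjusted p = 0.921). Over 24 fits without 1 library each, Rps15 was called in 4, those without PICK1i replicate 3, 4 or 7 or saline replicate 7 (adjusted p = 0.0370, 0.0314, 0.0114 and 0.0452), and its adjusted p reached 0.104 without PICK1i replicate 1. Over all 39 alternatives it ran from 0.0114 to 0.947.

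Positive values were common among the other genes in that comparison without passing the test. The median log2 fold change over the 76 genes was 0.12 (-0.21 to 0.30), with 67 positive and 9 negative, and 14 had an unadjusted p under 0.05. Counts with an unadjusted p under 0.05 are given here and below without the share over all tested genes. They cannot show whether these genes differ from others. Over all tested genes the median was -0.01. It was 0.16 over 1366 other tested genes of at most 1000 bases, of which 167 were called higher and 10 lower, and 0.17 over 77 genes of mitochondrial ribosomal proteins, of which 18 were called higher and 0 lower. By length class the medians of the ribosomal protein genes were 0.14, 0.14 and 0.06. In small subunit genes the median was 0.10 and in large subunit genes 0.12. In all 76 genes the PICK1i and saline ranges overlapped.

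The largest positive values were those of Rpl26, Rpl24 and Rpl18. Rpl26, which encodes a protein near the exit of the peptide tunnel, had 128, 172 and 213 CPM (lowest, median and highest) in PICK1i libraries, against 123, 136 and 160 CPM in saline libraries, a log2 difference of 0.30 ± 0.0995 (adjusted p = 0.0526, edgeR). For Rpl24 the values were 100, 136 and 164 CPM in PICK1i, against 99.3, 109 and 120 CPM in saline, a difference of 0.29 ± 0.0959 (adjusted p = 0.0527, edgeR). In both genes 5 of 8 PICK1i libraries were above the saline median and the ranges overlapped. Rps19, mutated in Diamond-Blackfan anaemia, had 67.7, 100 and 128 CPM in PICK1i, against 71.6, 77.1 and 90.5 CPM in saline (0.27 ± 0.0971, adjusted p = 0.0687, edgeR). DESeq2 called Rpl24, Rpl26 and Rps15 higher, 3 of the 76 genes, against 1964 of all 15363 genes to which it gave an adjusted p (12.8%), 6.62% higher and 6.16% lower.

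The most negative values in that comparison included genes that were high in saline replicates 2 and 3. Rpl4, whose protein lines the peptide tunnel, had 524, 601 and 787 CPM in PICK1i libraries, against 631, 671 and 938 CPM in saline libraries, of which 938 and 856 CPM were replicates 2 and 3. The difference was -0.21 ± 0.0830 (adjusted p = 0.0945, edgeR) and, without those 2 libraries, -0.09 ± 0.0665 (adjusted p = 0.387). Rpl4 was called lower without PICK1i replicate 1 (-0.27, adjusted p = 0.0487). Rpl10, which joins the large subunit late in its assembly, had 201, 221 and 307 CPM in PICK1i, against 206, 228 and 421 CPM in saline. Its difference was -0.12 with all libraries and 0.09 without saline replicates 2 and 3, and neither value passed the test. Rplp0, the base of the stalk, had 159, 195 and 243 CPM in PICK1i, against 167, 181 and 297 CPM in saline, with differences of -0.09 and 0.09 by the same measure.

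The median depended on which libraries were kept. Without saline replicates 2 and 3, 0 of the 76 genes were called for PICK1i against saline, 35 had an unadjusted p under 0.05 and the median was 0.17, with 73 positive and 3 negative. Of all 15820 genes tested in that fit, 5 were called (0.0316%), 0.0253% higher and 0.00632% lower. Without PICK1i replicates 1, 2, 5 and 6, 0 were called, 6 had an unadjusted p under 0.05 and the median was -0.10, with 4 positive and 72 negative. Without all 6 libraries, 0 were called, 3 had an unadjusted p under 0.05 and the median was -0.03. In both of these fits 0 of all tested genes were called (0%).

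PSD-95i against saline gave 0 called genes among the 76, and 0 of all 15667 tested (0%). An unadjusted p under 0.05 was reached by 5 of the 76, and DESeq2 called 0. The median log2 fold change was -0.11 (-0.31 to 0.03), with 4 positive and 72 negative, against -0.0031 over all tested genes, -0.03 over other genes of at most 1000 bases and 0.03 over genes of mitochondrial ribosomal proteins. It was -0.13, -0.11 and -0.11 by length class. In all 76 genes the ranges overlapped, and in 2 genes, Rpl35a and Rpl38, all 8 PSD-95i libraries were below the saline median. How many of all tested genes did so is not given here. Rpl35a had 91.8, 120 and 123 CPM in PSD-95i, against 112, 126 and 150 CPM in saline.

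The smallest adjusted p of that comparison among the 76 genes was that of Rpl5, which with Rpl11 and the 5S rRNA forms a particle that can bind and inhibit MDM2. Rpl5 had 98.4, 110 and 125 CPM in PSD-95i libraries, against 105, 119 and 202 CPM in saline libraries, where 196 and 202 CPM were replicates 2 and 3. The difference was -0.31 ± 0.122 (adjusted p = 0.401, edgeR) and, without those 2 libraries, -0.08 ± 0.0862. Rpl11 had 203, 243 and 261 CPM in PSD-95i, against 231, 258 and 317 CPM in saline, a difference of -0.15 ± 0.101. Without saline replicates 2 and 3 the median over the 76 genes was -0.03, and 0 had an unadjusted p under 0.05. Without PICK1i replicates 1, 2, 5 and 6 the median was -0.11 and 16 had an unadjusted p under 0.05, and without all 6 libraries it was -0.03 and 1 had one. In these 3 fits 0 of the 76 genes were called, as were 0 of all genes tested (0% of 15820, 16121 and 15992).

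For PSD-95i against PICK1i, 0 of the 76 genes passed the test with all libraries, as did 0 of all 15667 (0%). The median log2 fold change was -0.22 (-0.37 to 0.05), with 3 positive and 73 negative, and 50 of the 76 genes had an unadjusted p under 0.05. The share of all tested genes with such a p is not given here, so the 50 cannot be read as particular to these genes. The smallest adjusted p was 0.0515 (edgeR), and DESeq2 called 22 of the 76 lower and 0 higher, against 1260 of all 11414 genes to which it gave an adjusted p (11%), 5.2% lower and 5.84% higher. Over all tested genes the median was -0.01, over other genes of at most 1000 bases -0.22 and over genes of mitochondrial ribosomal proteins -0.15. By length class the medians were -0.24, -0.22 and -0.17, and they were -0.22 in both subunits. In 46 genes all 8 PSD-95i libraries were below the PICK1i median, though the ranges overlapped in all 76. The same count over all tested genes is not given here, and the 76 genes varied together, so the 46 cannot be read as particular to them. Each group takes part in 2 of the 3 comparisons, which are therefore not independent.

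The 3 genes with the smallest p in that comparison were of the large subunit. Rpl28 (chromosome 7, 4792874 to 4795066) had 106, 122 and 134 CPM in PSD-95i libraries, against 116, 161 and 196 CPM in PICK1i libraries, and 116, 133 and 141 CPM in saline. The difference was -0.36 ± 0.0968 from PICK1i (adjusted p = 0.0515, edgeR) and -0.09 from saline. The 4 PICK1i libraries from 179 to 196 CPM, all above every PSD-95i library, were replicates 1, 2, 5 and 6. Rpl36a (chromosome X, 134585654 to 134588062) had 44.8, 57.6 and 59.7 CPM in PSD-95i, against 51.6, 74.3 and 89.2 CPM in PICK1i (-0.36 ± 0.0985, adjusted p = 0.0515, edgeR). Rpl38, which in mouse embryos is needed for translation of a subset of Hox mRNAs, had 68.8, 83.9 and 89.5 CPM in PSD-95i, against 77.8, 108 and 134 CPM in PICK1i (-0.36 ± 0.102, adjusted p = 0.0519, edgeR). In each of the 3 genes all 8 PSD-95i libraries were below the PICK1i median.

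Without saline replicates 2 and 3, 14 of the 76 genes were lower in PSD-95i than in PICK1i past the threshold and 0 higher, while 7.64% of the 15820 genes tested were called, 3.5% lower and 4.13% higher. Of the 14, 9 were of the large subunit, among them Rpl11, Rpl24, Rpl26, Rpl28, Rpl35a, Rpl36a and Rpl38, and 5 of the small subunit, among them Rps15 and Rps19. Of other tested genes of at most 1000 bases, 155 were lower and 4 higher. The PSD-95i and PICK1i libraries were the same in both fits, and within each fit the groups share 1 estimate of the spread. Why more genes were called without the 2 saline libraries was not tested. Rpl28 had -0.36 ± 0.0968 with all libraries and -0.35 ± 0.0968 (adjusted p = 0.0351) without the 2. Without PICK1i replicates 1, 2, 5 and 6, 0 were called, 0 had an unadjusted p under 0.05 and the median was -0.01, with 34 positive and 42 negative, and Rpl28 differed by -0.04 ± 0.0702. Without all 6 libraries 0 were called, 0 had an unadjusted p under 0.05, the median to 2 decimals was again -0.01, and 34 were positive and 42 negative. In both of these fits 0 of all tested genes were called (0% of 16121 and of 15992). The absence of calls there cannot be read as particular to the 76 genes. Single libraries also decided the count with the others kept: it was 35 without PICK1i replicate 7, 23 without PICK1i replicate 4, 10 without PICK1i replicate 3, 4 without saline replicate 2, and 2 each without saline replicate 3 or PICK1i replicate 8. In the same fits, in that order, 6.57%, 3.88%, 2.25%, 1.42%, 1.5% and 0.99% of all tested genes were called lower and 8.11%, 5.12%, 2.54%, 1.8%, 1.58% and 1.41% higher.

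**Figure D5:**
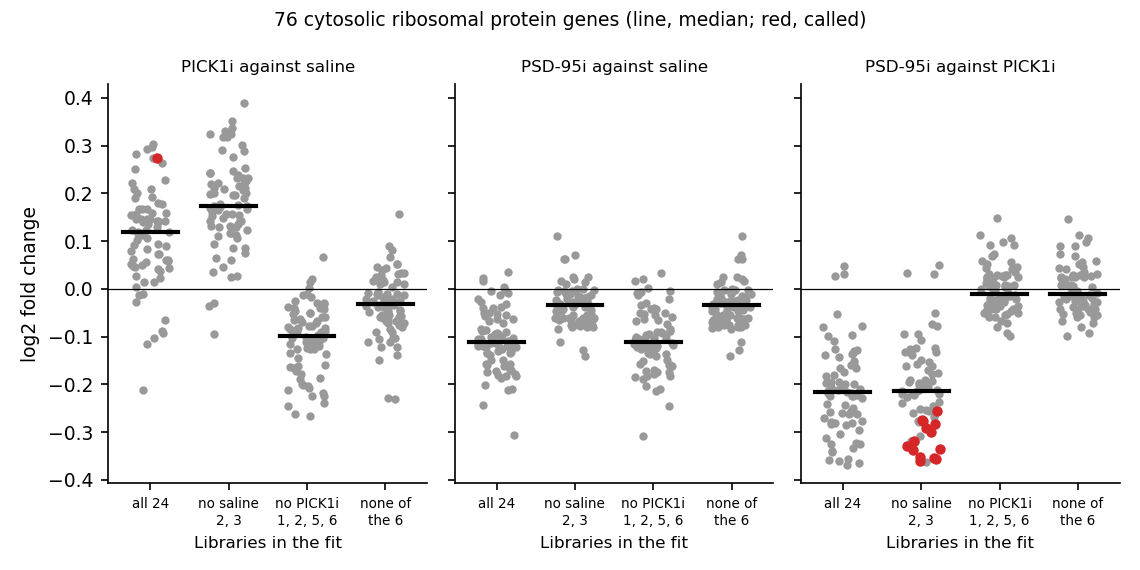
Log2 fold change of the 76 genes (points) in 3 comparisons, fitted with all 24 libraries, without saline replicates 2 and 3, without PICK1i replicates 1, 2, 5 and 6, and without all 6. Black lines are medians and red points are genes past an adjusted p of 0.05 (1 for PICK1i against saline with all libraries and 14 for PSD-95i against PICK1i without the 2 saline libraries). The medians of both comparisons with PICK1i lie near or below 0 once its 4 libraries are left out.

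Members with known separate roles overlapped between the groups like the others. Of the stalk proteins, which recruit translation factors, Rplp1 had 399, 478 and 549 CPM in PSD-95i, 426, 514 and 744 CPM in PICK1i and 383, 486 and 516 CPM in saline, and Rplp2 had 103, 126 and 140 CPM, 121, 146 and 199 CPM, and 121, 131 and 167 CPM in the same order. Rps6, the target of S6 kinases, had 195, 227 and 248 CPM in PSD-95i, 202, 256 and 290 CPM in PICK1i and 208, 235 and 297 CPM in saline. It differed by 0.03 ± 0.0770 between PICK1i and saline and by -0.10 ± 0.0769 between PSD-95i and saline. Rpsa, also known as the laminin receptor, had medians of 674, 681 and 690 CPM in PSD-95i, PICK1i and saline. Rps27a, made as a fusion with ubiquitin, had medians of 119, 149 and 125 CPM in the same groups. With all libraries, edgeR called 0 of these 5 genes in any comparison, while DESeq2 called Rps27a lower in PSD-95i than in PICK1i (-0.25, adjusted p = 0.0467).

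Several of the genes are known from human disease, since loss of 1 copy of RPS19, RPS24, RPS26, RPL5, RPL11 or RPL35A causes Diamond-Blackfan anaemia in humans. Besides Rps19, Rpl5, Rpl11 and Rpl35a, given above, Rps24 had 191, 234 and 261 CPM in PSD-95i, 217, 286 and 382 CPM in PICK1i and 225, 246 and 302 CPM in saline. It differed by 0.15 ± 0.0989 between PICK1i and saline and by -0.27 ± 0.099 between PSD-95i and PICK1i (adjusted p = 0.101, edgeR), and all 8 PSD-95i libraries were below the PICK1i median. Rps26 had 141, 162 and 181 CPM in PSD-95i, 154, 166 and 234 CPM in PICK1i and 158, 171 and 198 CPM in saline. It differed by 0.08 ± 0.0857 between PICK1i and saline and by -0.20 ± 0.0858 between PSD-95i and PICK1i, with 4 of 8 PSD-95i libraries below the PICK1i median. With all libraries, edgeR called 0 of these 6 genes in any comparison, while DESeq2 called Rps19, Rpl11 and Rpl35a lower in PSD-95i than in PICK1i.

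Of the 4 genes on chromosome X, Rpl36a and Rpl10 are given above. Rpl39, which encodes a small protein of the tunnel exit, had 25.5, 32.6 and 37.1 CPM in PSD-95i, 26.2, 35.5 and 51.9 CPM in PICK1i and 29.3, 35.2 and 46.3 CPM in saline, with differences of 0.04 ± 0.122 between PICK1i and saline and -0.21 ± 0.122 between PSD-95i and PICK1i. Rps4x had 193, 212 and 229 CPM in PSD-95i, 196, 216 and 283 CPM in PICK1i and 198, 224 and 316 CPM in saline, with differences of -0.10 ± 0.0902 and -0.08 ± 0.0903 in the same order. Its highest values were 283 CPM in PICK1i replicate 1 and 316 and 297 CPM in saline replicates 2 and 3. Rpl3, which reaches towards the peptidyl transferase centre, was one of the 3 genes with a positive value for PSD-95i against PICK1i, at 0.03 ± 0.0724, with 270.2, 338 and 344 CPM in PSD-95i, 254, 307 and 390.2 CPM in PICK1i and 288, 329 and 339 CPM in saline. The others were Rps15a and Rpl4 (0.03 ± 0.0829). Rpl22, which also binds RNA outside the ribosome, had 55, 58.5 and 64.7 CPM in PSD-95i, 54, 65 and 81.1 CPM in PICK1i and 55.9, 62.5 and 91 CPM in saline, with 91 CPM in saline replicate 2.

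The spread between libraries differed among the genes. The biological coefficient of variation, the relative spread beyond counting error, had a median of 13.2%, against 12.3% over all tested genes. It was 18.8% in Rpl18 and 17% in Rpl5, both among the most variable, and lowest in Rpl15 (7.42%), Rps15a (7.62%) and Rps3 (10.02%). Rps15a had the longest transcript length of the set as weighted by assigned counts, which rests on how reads were divided. Its values were 160, 174 and 187 CPM in PSD-95i, 148, 168 and 186 CPM in PICK1i and 147, 173 and 184 CPM in saline. It differed by -0.01 ± 0.0543 between PICK1i and saline and by 0.05 ± 0.0542 between PSD-95i and PICK1i.

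In the table of transcripts, 324 transcripts of the 76 genes were among 37955 tested, and 0 were called in any of the 3 comparisons. Of all transcripts tested, 760 were called for PICK1i against saline (2%) and 0 in the other comparisons (0%). An unadjusted p under 0.05 was reached by 64 of the 324 for PICK1i against saline, by 24 between PSD-95i and saline and by 157 between PSD-95i and PICK1i. The share of all tested transcripts with such a p is not given here. With a stricter filter of at least 50 counts in 8 libraries, 237 transcripts of these genes were tested. Of these, 3 were called higher in PICK1i than in saline and 6 lower in PSD-95i than in PICK1i, with 0 called in the other direction. Of all 19106 transcripts tested with that filter, 8.12% and 4.97% were called in either direction. Of the 2 transcripts of Rps15, Rps15-201 held 51.6% ± 2.47 of the gene's count in PSD-95i, 51.6% ± 1.36 in PICK1i and 49.8% ± 1.28 in saline (SD, n = 8 each), and differed by 0.31 ± 0.0931 for PICK1i against saline (adjusted p = 0.0605, edgeR). Rps24, whose 3′ exons are spliced in ways that differ between tissues, had 90.1% ± 1.74, 89.0% ± 3.08 and 90.5% ± 1.58 of its count on Rps24-202 in PSD-95i, PICK1i and saline. Division of reads between transcripts is itself an estimate, and its error is not in these tests.

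Other genes of the same pathway were taken from lists chosen with earlier results known. Of 13 ribosomal genes that the name rule misses, 10 were tested and edgeR called 0 in any comparison with all libraries. Among them Fau, a precursor of a small subunit protein, averaged 89.3 ± 8.69 CPM in PSD-95i, 108 ± 26.3 CPM in PICK1i and 87.4 ± 10.3 CPM in saline (SD, n = 8 each). Of 39 genes of rRNA synthesis and ribosome assembly, 4 were higher and 0 lower in PICK1i than in saline: Noc2l (0.30, adjusted p = 0.0175), Rrp9 (0.38, adjusted p = 0.0191), Nob1 (0.27, adjusted p = 0.0197) and Nop56 (0.23, adjusted p = 0.0449, all edgeR). Nob1 cuts the precursor of 18S rRNA in the cytoplasm, and Nop56 and Rrp9 are proteins of snoRNA particles. These counts stand beside 4.88% of all genes called higher and 4.27% called lower.

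Translation factors and other genes with TOP mRNAs did not share a direction. Of 17 such genes, 1 was higher and 2 lower in PICK1i than in saline: Eef1d by 0.18 (adjusted p = 0.0385), Eif4b by -0.31 (adjusted p = 0.0181) and Eef1a1 by -0.26 (adjusted p = 0.0276, all edgeR). Eef1a1, which brings aminoacyl-tRNA to the ribosome, averaged 2217 ± 214 CPM in PICK1i and 2651 ± 323 CPM in saline. Of 17 genes of the mTOR pathway, 0 were higher and 2 lower: Deptor, an inhibitor of mTOR, by -0.54 (adjusted p = 0.0225) and Eif4ebp2, an mTOR target that represses translation, by -0.60 (adjusted p = 0.0438, both edgeR). Without saline replicates 2 and 3, 0 genes of these lists were called for PICK1i against saline, as were only 5 of all 15820 tested (0.0316%). Between PSD-95i and saline, and between PSD-95i and PICK1i, 0 genes of these lists were called with all libraries, and an unadjusted p under 0.05 was reached by 3 and 4 of 10 genes outside the name rule, 3 and 13 of 39 assembly genes, 1 and 9 of 17 translation and TOP genes, and 1 and 5 of 17 mTOR genes. DESeq2 called 0 of all tested genes between PSD-95i and saline and 1260 between PSD-95i and PICK1i.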

How the data were processed

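RNA of 24 libraries was sequenced as stranded poly(A) libraries with 52-base paired reads, per the labels' protocols. The tables deposited by the authors give estimated counts for genes and for transcripts without normalisation. Their tools were bcl2fastq 2.20.0, STAR and Salmon with GRCm38, per the submitters' processing notes. Other versions, the annotation release and the strand setting were not given in the sources used here. Groups and replicate numbers came from the sample titles, and 84 pairs of libraries of one group held 0 identical pairs.

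The estimated counts were first rounded to whole numbers. Genes kept by filterByExpr (minimum count 10) were scaled by TMM and tested by edgeR 4.0.16 (quasi-likelihood, two-sided, R 4.3.3) in 1 fit of 24 libraries with 21 residual degrees of freedom, adjusted over all genes tested, threshold 0.05. The CPM of single genes are scaled by TMM, and shares and marker sums use library totals. Lengths and positions came from GENCODE M21 (GRCm38), which lacks the transcripts of 2 members. Levels per length are transcript counts over transcript length, scaled to 1000000. Alternatives, with DESeq2 1.42.0 and limma 3.58.1, are given at the end. The procedure was tested on simulated data.

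The members, the lists, the libraries left out and the tests were chosen with earlier results of these data known. Genes named are a fixed list of members with known roles and the 5 highest and 5 lowest per length. To these come the 3 most and 3 least variable and, per comparison, the called members or the 8 with the smallest p. Any other gene named was chosen after its values were seen. Some genes that the rule names are not reported here. With 8 libraries a group and common variation of 14.4%, small changes of single genes can be missed.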

Additional observations from a re-analysis of the deposited data

Results flagged for a closer look

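Within each group of 8 libraries, the gap of the highest or lowest value to its neighbour was set against the whole range, for the named genes and the summed share. Of 117 such checks 14 passed Dixon's 95% critical value, and chance gives about 5%. In PSD-95i replicate 1, 5 genes were far below the other PSD-95i libraries: Rpl10a at 63.2 CPM, Rpl3 at 270.2 CPM, Rpl35a at 91.8 CPM, Rpl36a at 44.8 CPM and Rpl38 at 68.8 CPM. In PICK1i replicate 1, Rpl4 at 787 CPM and Rps4x at 283 CPM were far above the other PICK1i libraries. In saline replicate 2, Rpl10 at 421 CPM, Rpl15 at 158 CPM, Rpl8 at 569 CPM, Rps14 at 247 CPM and Rps23 at 324 CPM were far above the other saline libraries, as was the summed share of the 76 genes at 1.86%. Rplp1 at 383 CPM was far below the others in saline replicate 3. The values share their libraries and are not independent of each other.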

How the results depend on the processing

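For PICK1i against saline the number of members called higher, 1 with all libraries, was 0 with TMM factors from other genes, library totals, no filter, a stricter filter (at least 50 counts in at least 8 libraries), limma-voom with or without sample weights, the replicate number as a block, a fit of the 2 groups only, without saline replicates 2 and 3, without PICK1i replicates 1, 2, 5 and 6, without all 6, and with the length slope as a covariate. It was 3 with DESeq2 (6.62% of all genes higher), and 1 member (Rpl4) was lower with library totals. With the 2 groups only, without the 4 PICK1i libraries, without all 6 and with the length slope, 0 of all genes were called. Without 1 library at a time, 0 to 7 members were higher and 0 to 1 lower, with 299 to 2757 of all genes called. The median, 0.12, was -0.099 without the 4 PICK1i libraries and -0.119 with the length slope. For PSD-95i against PICK1i the number called lower, 0, was 6 with the stricter filter (2.45% of all genes lower), 22 with DESeq2 (5.2%), 14 without saline replicates 2 and 3 (3.5%), and 0 to 35 without 1 library (0 to 2315 of all genes called). With limma-voom, without and with sample weights, it stayed 0 while 429 and 436 of all genes were called. The median of that comparison, -0.22, was -0.011 without the 4 PICK1i libraries, -0.0115 without all 6 and 0.067 with the length slope. Of 237 transcripts of members tested with the stricter filter, 3 and 6 were called in these comparisons, against 8.12% and 4.97% of all transcripts in either direction. The cause was not tested. The summed share over counts outside mitochondrial genes was 1.58% in PSD-95i, 1.80% in PICK1i and 1.68% in saline, and with pseudogene rows added it was 1.57% in PSD-95i, 1.74% in PICK1i and 1.68% in saline. Replicate numbers are shared between groups, but 5 of 24 same-numbered pairs correlated over 0.1, so they were not taken as pairs. With the replicate block 0 members and 1127 genes were called for PICK1i against saline. For 37 named members, 4207 of 4329 values under 39 alternatives stayed on the same side of the threshold. Of the rest, 90 crossed the threshold to be called and 32, all of Rps15 for PICK1i against saline, lost the call. That was the only named value called with all libraries, so the others could only stay uncalled or gain a call. Rps15 kept its call in 7 of the 39 alternatives. Among the 4207 were 217 uncalled values that changed sign. Depth limits calls of small changes, and values of members with many copies depend on the division of reads.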

Other observations

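Without saline replicates 2 and 3, PSD-95i against PICK1i gave further calls in the related lists: 10 of 77 genes of mitochondrial ribosomal proteins were lower and 0 higher, as were 5 of 39 assembly genes, and 2 of 10 ribosomal genes outside the name rule, while 3.5% of all tested genes were called lower and 4.13% higher. Of 17 translation factors and TOP genes 1 was higher and 3 lower, and of 17 mTOR pathway genes 1 was higher and 1 lower. The median log2 fold change was -0.15 over the mitochondrial list, -0.05 over the assembly list, -0.26 over the genes outside the name rule and 0.03 over the mTOR list. In all of these lists 0 genes were called without PICK1i replicates 1, 2, 5 and 6, as were 0 of all 16121 genes tested in that fit (0%).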
